A study of Mus musculus with 6 samples.

Results

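The extracellular matrix of the nucleus accumbens was examined through 10 genes, chosen by name: the chondroitin sulfate proteoglycan genes Acan, Bcan, Ncan and Vcan, the link protein genes Hapln1, Hapln2 and Hapln4, the tenascin genes Tnr and Tnc, and the reelin gene Reln. All 10 were found among the 15939 genes that the deposited catalogues list. RNA came from the nucleus accumbens of C57BL/6N mice after conditioned place preference training, in which a drug or its vehicle is paired with a place, with morphine (3 libraries, replicates 4, 5 and 6) or with saline (3 libraries, replicates 1, 2 and 3). The series text counts 6 mice in each group and does not say which mice went into which library, so the spread below is that between libraries and may be partly technical. Neither the labels nor the series text states the dose, the number of injections, the time of tissue collection, or the age and sex of the mice.

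Each library came as a catalogue of transcript structures assembled from it, and distinct events were counted for each gene in it: first exons, last exons, skipped exons, retained introns and alternative exon ends. Events of 2 libraries were taken as the same where gene, type, strand and splice positions matched. These are numbers of structures, not expression levels, and read depth is unknown, so no counting interval was computed. A structure that a catalogue leaves out was not recorded there, which does not show that the RNA was absent. Positions are on GRCm38.

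Perineuronal nets are lattices of matrix around neurons, best known around parvalbumin interneurons. Their scaffold is hyaluronan. Proteoglycans of the lectican family (aggrecan, brevican, neurocan and versican) bind it through their amino-terminal end, link proteins hold that bond, and tenascins bridge the other end of the proteoglycans. Hapln2 and versican also belong to the matrix at nodes of Ranvier, and reelin is a secreted glycoprotein that signals through lipoprotein receptors.

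The 10 genes had 75 distinct events over the 6 libraries, of which 15 were listed in all 6 and 31 in a single library. Their events summed to 37, 30 and 39 in the morphine libraries and to 40, 37 and 40 in the saline libraries, or 35.3 ± 4.73 against 39.0 ± 1.73 (SD, n = 3 each; log2 ratio of the means -0.14). These sums overlapped. Hapln4 alone had groups that did not overlap, with fewer events in every morphine library, so that 1 of 10 genes stood apart, against 3.07% of the 15040 tested genes in either direction, 1.43% with saline above and 1.64% with morphine above. Acan kept the same number of events in all 6 libraries but had a different first exon in every morphine library from that of the saline libraries. The median log2 ratio of the 10 genes was -0.05 and that of all tested genes 0. No gene could pass an adjusted threshold, since the smallest exact two-sided permutation p of 3 against 3 libraries is 0.1.

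**Figure D1:**
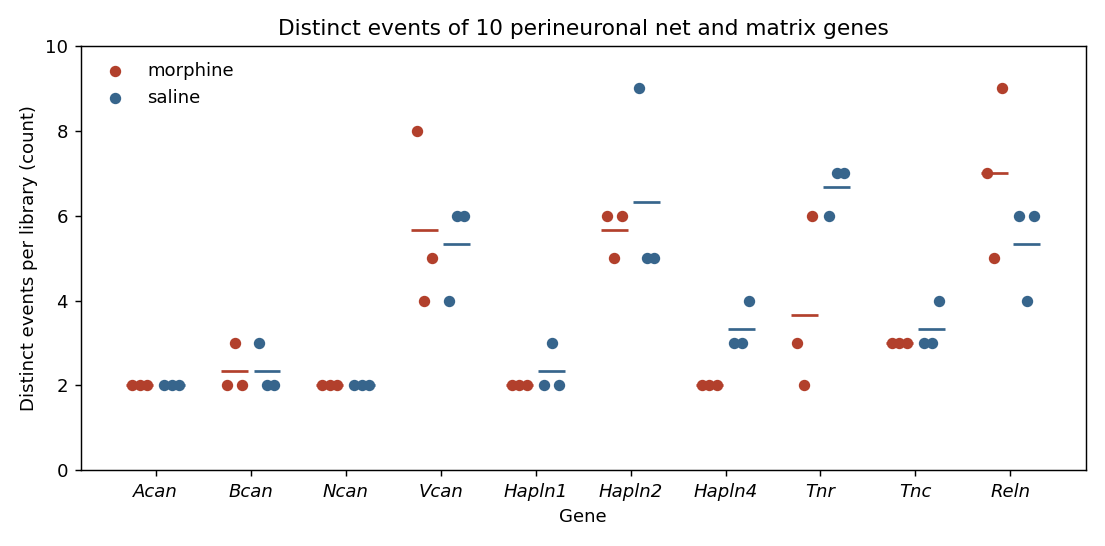
Number of distinct events (vertical axis, count per library) of each of the 10 genes (horizontal axis). Each point is a library and each line a group mean, morphine left and saline right; the Hapln4 points lie at 2 in the morphine libraries and at 3, 3 and 4 in the saline libraries, and the Tnr points meet at 6.

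The libraries listed 56416 to 57981 distinct events after morphine and 54641 to 58007 after saline. Of 12 listed marker genes of medium spiny neurons, the main neurons of this region, all 12 were found in every library. Drd1 and Penk had 3 and 2 events in each of the 6 libraries, and Pvalb, the parvalbumin gene, had 2 in each. Other named markers varied. Drd2 had 3, 2 and 3 events in morphine and 4, 4 and 3 in saline libraries. Ppp1r1b had 4, 4 and 4 against 3, 4 and 3, and the precursor marker Pdgfra 3, 3 and 4 against 4, 3 and 3. The groups overlapped in all of these. The marker lists of interneurons, oligodendrocytes, their precursors, astrocytes and cortical glutamatergic neurons had 0 of 9, 0 of 9, 0 of 8, 0 of 9 and 0 of 8 genes whose groups did not overlap. In the medium spiny neuron list 2 of 12 genes stood apart, Foxp2 and Rgs9, both with morphine above. Over all tested genes the share was 3.07% in either direction and 1.64% with morphine above. The medium spiny neuron list summed to 62 to 74 events in morphine and to 58 to 63 in saline libraries. Its part in the results below was not tested. Event counts measure neither the number of cells of a type nor the RNA per cell, and bulk tissue does not tell these apart.

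Acan encodes aggrecan, the proteoglycan most closely tied to dense perineuronal nets, and lies at chr7:79053483-79115099 on the plus strand. Each library listed 2 Acan events, a first exon and a last exon. In the morphine libraries the first exon was a different exon each time. It ran from 79089536 to 79089896 in replicate 4, from 79084523 to 79084850 in replicate 5 and from 79082200 to 79082264 in replicate 6. Their splice sites are those of exons 6, 3 and 2, all internal in the annotation, so the structures listed after morphine began inside the gene. In the saline libraries the first exon was the annotated exon 1, with its splice site at 79053608 and its start at 79053244, 79053538 and 79053483.

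Measured from the annotated start, the assembled Acan began at 36.1, 31.0 and 28.7 kb in the morphine libraries, against -0.239, 0.055 and 0 kb in the saline libraries. The groups were 28.7 kb apart at their closest. Among 12938 genes listed in all 6 libraries, 1.92% had most upstream starts that did not overlap between the groups, 0.0928% had every morphine start more than 10000 bases downstream of every saline start, and 0.085% the reverse. The first exon ending at 79053608 was listed in 0 morphine and in 3 saline libraries, a pattern that 0.345% of all 128790 events showed, while 0.321% showed the reverse. The 3 morphine exons were each listed in a single library, so Acan had no first exon common to the morphine group. The last exon began at 79114200 in all 6 libraries and ended between 79115028 and 79115073 in morphine and between 79114906 and 79115099 in saline libraries. The 3' end of Acan was thus listed alike, with overlapping groups.

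**Figure D2:**
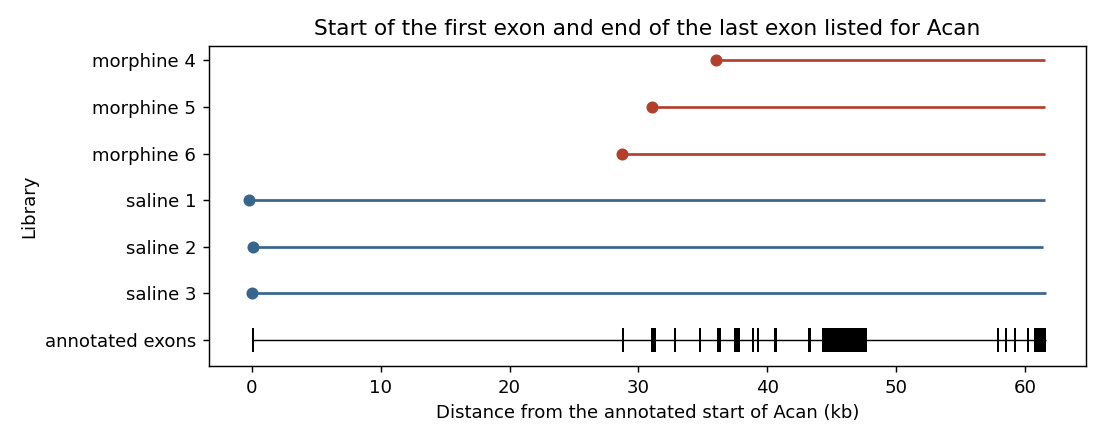
Each line runs from the start of the first exon (point) to the end of the last exon listed for Acan in a library, in kb from the annotated start (horizontal axis), with the 3 morphine libraries above the 3 saline libraries; black boxes mark annotated exons. The morphine points lie at 36.1, 31.0 and 28.7 kb and the saline points between -0.239 and 0.055 kb.

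The promoter ahead of the annotated exon 1 is shown because that first exon was listed in saline libraries alone. Promoter use was not tested, and an exon that is not listed does not show an unused promoter. The RefSeq start of Acan is at 79053226, and the first exon of saline replicates 1, 2 and 3 began 18, 312 and 257 bases after it. The 250 bases before the RefSeq start (chr7:79052976-79053225, plus strand, RefSeq on GRCm38.p6) are given 5′ to 3′, with matches to the CCAAT box (CCAAT) and the GC box (GGGCGG) on either strand in capitals.
Acan promoter: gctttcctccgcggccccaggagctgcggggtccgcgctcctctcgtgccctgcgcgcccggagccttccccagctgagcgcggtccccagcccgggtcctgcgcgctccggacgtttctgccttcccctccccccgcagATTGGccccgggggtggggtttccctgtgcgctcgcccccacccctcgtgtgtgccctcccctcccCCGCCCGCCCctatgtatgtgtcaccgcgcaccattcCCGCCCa
This window holds 26 CG dinucleotides against a median of 6 over 32851 RefSeq promoters, and 9.59% of promoters hold as many. A CCAAT box stands in 33.8% of all promoters of this length, a GC box in 32.7% and a TATA box (TATAAA), not found here, in 12.4%. Of the 9 genes with a promoter entry, 4 had a CCAAT box, 6 a GC box and 2, Ncan and Tnc, a TATA box. Reln had the most CG dinucleotides of the 9, with 37, and Tnr, Hapln1 and Hapln2 had 2 each.

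Ncan, which encodes neurocan, a proteoglycan secreted in the developing and adult brain, was listed identically in all 6 libraries. Its 2 events were the annotated first exon from 70120728 to 70120873 and the last exon from 70093085 to 70096450 of chromosome 8, with the same outer ends in each library. No other of its 15 annotated exons was listed as alternative in any library.

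Bcan encodes brevican, the most abundant lectican of the adult brain, and had 2, 3 and 2 events in the morphine libraries and 3, 2 and 2 in the saline libraries. The groups overlapped and their means were both 2.33. The last exon was the same in all 6, from 87987531 to 87987967 of chromosome 3. It is the annotated end of the secreted form, and no end for the membrane-anchored form was listed in any library. Its 3 listed first exons are all in the annotation. The first exon with its splice site at 88000103 was listed in 5 libraries. Morphine replicate 4 listed a first exon from 87997745 to 88000230 in its place, which starts at the same base and keeps the first intron of 2247 bases. The first exon from 87999589 to 87999634, was listed in morphine replicate 5 and saline replicate 1.

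Vcan encodes versican, whose long alpha and beta exons carry the glycosaminoglycan attachment region. The V0 form keeps both, V1 lacks the alpha exon and V2 lacks the beta exon, and V2 is known as the main form of adult brain. Vcan had 8, 4 and 5 events in the morphine libraries and 4, 6 and 6 in the saline libraries (log2 ratio 0.05, exact permutation p = 1). The groups overlapped, and morphine replicate 4 was the highest of the 6. The beta exon, 5217 bases at chr13:89688285-89693501, and the alpha exon, 2880 bases at chr13:89702918-89705797, were each listed as skipped in morphine replicate 4 and in saline replicates 2 and 3. These were separate events and not a joint skip. The beta exon was skipped with the alpha exon as a flank, as in V2. The alpha exon was skipped with the beta exon as a flank, as in V1. Both lengths are multiples of 3. In the other 3 libraries neither exon was listed as alternative, and such a catalogue does not show which form was assembled.

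The junctions that tell these forms apart are given 5′ to 3′ on the minus strand, from GENCODE M21 transcripts, with the last 20 bases of the upstream exon in lower case and the first 20 of the downstream exon in capitals. Of these forms, the second belongs only to the form with both exons. The third belongs to the form without the alpha exon and the fourth to the form without the beta exon. The first is shared by the forms that keep the alpha exon, and the last by the forms that keep the beta exon.
Exon 6 to alpha: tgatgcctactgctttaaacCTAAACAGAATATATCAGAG
Alpha to beta: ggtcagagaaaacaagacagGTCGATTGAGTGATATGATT
Exon 6 to beta: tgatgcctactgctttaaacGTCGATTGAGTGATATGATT
Alpha to exon 9: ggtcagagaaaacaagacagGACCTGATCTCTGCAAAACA
Beta to exon 9: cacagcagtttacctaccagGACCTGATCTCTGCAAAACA
The other Vcan events also differed between libraries. An early last exon with its splice site at 89712498, which ends the transcript before the glycosaminoglycan exons, was listed in morphine replicates 5 and 6 and in all 3 saline libraries. Morphine replicate 4 instead listed a form that joins exon 6 to the alpha exon through the intron of 6407 bases between them. Morphine replicate 6 alone listed the exon of 145 bases at chr13:89661917-89662061 as skipped, that is, as optional. Morphine replicate 5 alone listed a first exon ending with the beta exon, from 89688285 to 89699012. The annotated last exon from the splice site at 89657358 was missing from morphine replicate 5 and listed in the other 5 libraries.

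Among the link protein genes, Hapln4 encodes the link protein partnered with brevican at inhibitory synapses and nets. It lies at chr8:70083457-70090862 on the plus strand. It had 2 events in each morphine library and 3, 3 and 4 in the saline libraries, or 2.0 ± 0 against 3.33 ± 0.577 (SD, n = 3 each; log2 ratio -0.61). The groups did not overlap. The exact permutation p was 0.1 and the p adjusted over all tested genes was 1. With limma the p was 0.00452 and the adjusted p 0.445 (SE of the log2 ratio 0.115); at an adjusted p under 0.05 limma called 0 of the 10 genes and 0.638% of all tested genes. Every library listed the annotated first exon from 70083529 to 70083563 and the last exon from 70088130 to 70090862. A further first exon from 70083529 to 70084540, which keeps the first intron of 856 bases, was listed in 0 of 3 morphine and in 3 of 3 saline libraries. Saline replicate 3 also listed a form that keeps the second intron, of 241 bases. The Hapln4 difference was therefore made by transcripts that keep introns at the 5' end and that were listed only in saline libraries, while the spliced form was listed in all 6.

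Hapln2 encodes the link protein of nodes of Ranvier, made by oligodendrocytes. It had 6, 5 and 6 events in the morphine libraries and 9, 5 and 5 in the saline libraries (log2 ratio -0.10, exact permutation p = 1). The groups overlapped, saline replicate 1 being the highest, and the log2 ratio turned to 0.16 without that library. The third intron, 211 bases at chr3:88024119-88024329, was listed as retained in all 6 libraries. A form that keeps both this intron and the fourth, of 124 bases, was listed in 5, all but saline replicate 2. Saline replicate 2 alone listed another form, which keeps the fourth intron and the intron after it but not the third. Retention of the fourth intron was thus listed in every library, though not in the same form. A first exon with its splice site at 88027195, which the annotation does not hold, was listed in morphine replicates 4 and 6 and in 0 saline libraries. Morphine replicate 5 listed a first exon that keeps the first intron of 444 bases in place of the annotated one. Saline replicate 1 listed a first exon 30.9 kb upstream, from 88058327 to 88058495, inside the annotated gene Naxe on the same strand.

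Hapln1, the link protein gene needed for net assembly in mice, had 2 events in each morphine library and 2, 3 and 2 in the saline libraries (log2 ratio -0.16, exact permutation p = 1). The groups overlapped. Its first exon had the splice site at 89584827 in all 6 libraries. The most upstream start lay 44.1, 44.8 and 44.5 kb downstream of the annotated gene start in morphine and 44.7, 44.1 and 44.7 kb in saline libraries. The value of saline replicate 2 came from a further first exon, from 89583910 to 89584116, which the annotation does not hold. In that library the exon with the splice site at 89584827 began 44588 bases downstream of the annotated gene start. All 6 libraries thus listed a start at the annotated second exon, which is also the first exon of a shorter annotated transcript.

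The genes of the family stand in pairs on the genome, a proteoglycan gene next to a link protein gene. In the annotation Acan and Hapln3 are 2 bases apart, Ncan and Hapln4 2.22 kb, Bcan and Hapln2 21.5 kb, and Vcan and Hapln1 43.7 kb, with 0 protein-coding gene starts between the members of each pair. Hapln3, next to Acan, had 2 events in each of the 6 libraries, a number that does not show which structures they were. Ncan, next to Hapln4, had the same 2 events in all 6. Acan and Hapln3 lie on opposite strands end to end, and whether the reads were strand-specific is not given in the sources used here.

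Tnr encodes tenascin-R, made by oligodendrocytes and interneurons and needed for normal nets in mice. It lies at chr1:159523769-159931729 on the plus strand. It had 3, 2 and 6 events in the morphine libraries and 6, 7 and 7 in the saline libraries, or 3.67 ± 2.08 against 6.67 ± 0.577 (SD, n = 3 each; log2 ratio -0.89). The groups met at 6, the value of morphine replicate 6 and saline replicate 1 (exact permutation p = 0.2, adjusted p = 1 over all tested genes; limma p = 0.076 and adjusted p = 0.905). Without morphine replicate 6 the log2 ratio was -1.27 and the groups did not overlap, and the same held without saline replicate 1, at -0.96. The groups met only through these libraries, so leaving out either one had to separate them. Of all tested genes, 6.72% did not overlap without morphine replicate 6 and 7.4% without saline replicate 1. With the partner records of skipped exons and retained introns counted as well, Tnr did not overlap either, with a log2 ratio of -0.96 and an exact permutation p of 0.1.

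The annotated first and last exons of Tnr were listed in all 6 libraries with the same outer ends. What differed lay between them. The first exon ending at 159737611, the first exon of an annotated shorter transcript, was listed in morphine replicate 6 and in all 3 saline libraries. So were both alternative ends of the exon that starts at 159737511, at 159737611 and at 159737813. The first exon from 159773770 to 159774249 was listed in morphine replicate 6 and saline replicates 2 and 3. Morphine replicates 4 and 5 listed none of these 4 events.

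The coding exon of 477 bases at chr1:159851957-159852433 was listed as skipped in morphine replicate 4 and in all 3 saline libraries. Its length is a multiple of 3. It is shown because it is the only exon of Tnr listed as skipped. The first 80 whole codons, chr1:159851959-159852198 on the plus strand, are given 5′ to 3′ from GENCODE M21 with the in-frame cysteine codons (TGT and TGC) in capitals.
Tnr exon: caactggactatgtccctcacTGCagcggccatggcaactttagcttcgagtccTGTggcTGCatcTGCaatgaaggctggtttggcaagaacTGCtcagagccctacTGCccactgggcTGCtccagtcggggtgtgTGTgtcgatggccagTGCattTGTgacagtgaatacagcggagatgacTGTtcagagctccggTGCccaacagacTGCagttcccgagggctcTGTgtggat
The exon holds 29 cysteine codons among 159 codons, or 18.2%, against 41 among the 1358 codons of the whole coding sequence, or 3.02%. Tenascins carry a run of cysteine-rich EGF-like repeats ahead of their fibronectin repeats.

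Tnc encodes tenascin-C, abundant in development and made by astrocytes. It had 3 events in each morphine library and 3, 3 and 4 in the saline libraries (log2 ratio -0.12, exact permutation p = 1). The groups overlapped in number, but both listed ends of the gene varied between libraries. The first exon from the splice site at 64046749 was listed in 5 libraries. Morphine replicate 6 had in its place first exons inside the gene, ending at 64016831 and at 63982651, so that its most upstream start lay 28.8 kb downstream of the annotated start. The starts of morphine replicates 4 and 5 lay 0.101 and 0.067 kb downstream of it and those of the saline libraries 0.006, 0.048 and 0.033 kb, so that the groups did not overlap, by 19 bases, against 1.92% of genes whose starts did not overlap. The annotated last exon from 63960543 was listed in morphine replicates 4 and 6 and saline replicates 1 and 3, while a last exon from 64013224, the annotated end of a short form, was listed in morphine replicate 5 and all 3 saline libraries. A fibronectin repeat exon of 273 bases at chr4:63982651-63982923, 1 of 6 exons of this length in the gene, was listed as skipped in saline replicate 3 alone.

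Reln had 7, 5 and 9 events in the morphine libraries and 6, 4 and 6 in the saline libraries, or 7.0 ± 2.0 against 5.33 ± 1.15 (SD, n = 3 each; log2 ratio 0.35, exact permutation p = 0.4, adjusted p = 1 over all tested genes). The groups overlapped. Without morphine replicate 5, the lowest of its group, every remaining morphine library lay above every saline library. The log2 ratio was then 0.55 and the exact permutation p 0.2, the smallest that 3 against 2 allows. Of all tested genes, 6.82% did not overlap without that library. The annotated first exon from 22344180 to 22344690 of chromosome 5 and the last exon from the splice site at 21885569 were listed in all 6 libraries. Nearly all other Reln events lay in a single stretch before the last exon, between 21885569 and 21896087, where an exon of 6 bases is a known optional part of the reelin messenger.

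That stretch was assembled differently from library to library. The microexon of 6 bases at chr5:21891562-21891567 was listed as skipped in morphine replicate 4 and saline replicate 3. A longer exon of 136 bases with the same 3' end, at chr5:21891562-21891697, was listed as skipped on its own in morphine replicates 4 and 5 and saline replicate 3. It was listed as skipped together with an exon of 84 bases, at chr5:21895150-21895233, in morphine replicates 5 and 6 and saline replicates 1 and 2. The exon of 136 bases was thus listed as optional in all 6 libraries. The lengths of the microexon and of the 84-base exon are multiples of 3, and 136 is not. The 136-base exon is annotated only in a transcript without a coding sequence, and the 84-base exon shares its 5' end with an annotated exon but not its 3' end.

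These exons are shown because they hold most of the variation of Reln. They are given from GENCODE M21 on the minus strand, 5′ to 3′. Capitals mark the microexon between 24 bases of each flanking exon, and then the same 6 bases at the end of the longer exon.
Microexon: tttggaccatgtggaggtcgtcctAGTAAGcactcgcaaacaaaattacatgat
Longer exon: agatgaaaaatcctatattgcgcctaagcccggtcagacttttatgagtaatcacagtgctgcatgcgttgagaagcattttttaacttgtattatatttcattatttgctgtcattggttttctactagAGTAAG
Preceding exon: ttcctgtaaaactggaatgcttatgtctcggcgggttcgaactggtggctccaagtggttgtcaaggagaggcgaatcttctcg
Morphine replicate 6 and saline replicate 1 listed an exon that joins the whole stretch from 21891562 to 21896087, introns included. Morphine replicate 4 alone listed a last exon from the splice site at 21895233, at the 5' end of the 84-base exon. The last exon common to all libraries was 1116, 2756 and 1925 bases long in the morphine libraries and 1599, 320 and 1116 bases in the saline libraries. The groups overlapped.

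**Figure D3:**
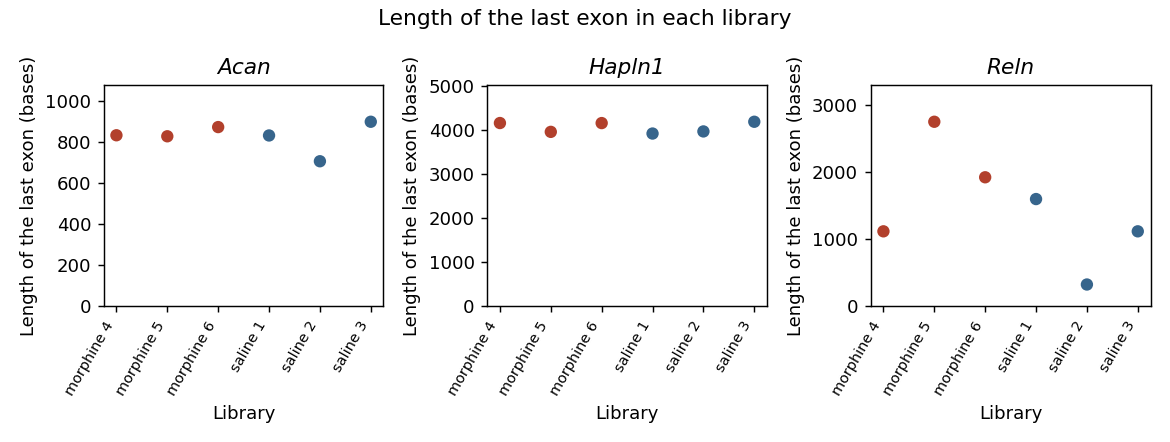
Length in bases (vertical axis) of the last exon of Acan, Hapln1 and Reln in each library (horizontal axis, morphine left of saline), 1 point per library. The groups overlap in all 3 genes; Reln has the widest range, with 2756 bases in morphine replicate 5 and 320 bases in saline replicate 2.

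The 15 of 75 events listed in all 6 libraries compare with 20.9% of the 128790 events of the series, and the 41.3% listed in a single library with 50.7%. In all 6 libraries were 8 of 18 last exons of the 10 genes, or 44.4%, against 32.1% of last exons in the series. For first exons this was 6 of 26, or 23.1%, against 29.8%, and for skipping events 0 of 10, against 18.3%. The annotation held the boundaries of 70.7% of the 75 events, against 63.6% in the series. The outer ends of first and last exons were compared where all 6 libraries listed the exon. Of 6 such first exons and 8 such last exons of these genes, 0 and 0 had groups that did not overlap, against 1.12% and 0.702% in the series. The most downstream end of the gene overlapped in all 10, against 1.38% of genes where it did not. The most upstream start did not overlap in 2 of 10, Acan and Tnc, against 1.92% of genes. Of the 75, 2 events, or 2.67%, were listed in all libraries of a group and 0 of the other, the first exons of Acan and Hapln4 described above, both in saline; the share was 0.665% over the series. With so few events this share rests on 2 genes.

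First exons whose splice site belongs to an internal exon of the annotation, as in Acan, numbered 1, 3 and 3 among these genes in the morphine libraries and 0 in each saline library. They came from Acan, Vcan, Hapln2 and Tnc. Over all genes such first exons numbered 2778, 2956 and 2534 in the morphine libraries and 2801, 2367 and 2666 in the saline libraries, or 11.9% to 13.6% against 11.1% to 12.9% of first exons. The groups overlapped there. This count was chosen after the values were seen.

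**Figure D4:**
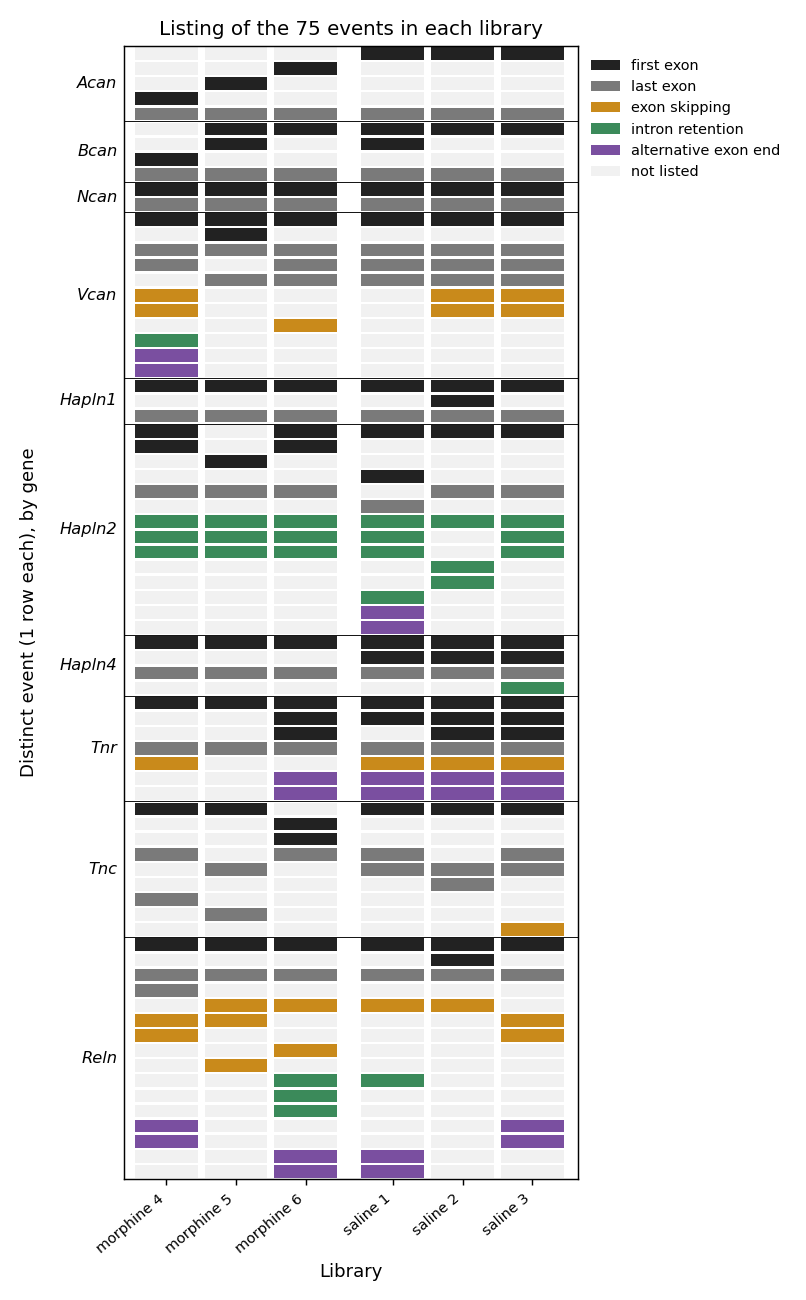
Each row is a distinct event of the gene named at the left and each column a library, morphine left of saline; a filled box, coloured by event class, means that the library listed the event. The first exon of Acan and the longer first exon of Hapln4 are filled in the 3 saline columns alone, and Ncan is the same in all 6.

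Other genes of the same matrix were described from lists of link proteins and hyaluronan enzymes, other brain proteoglycans, chondroitin sulfate synthesis, net receptors and ligands, the reelin pathway, and matrix proteases with their inhibitors. Of 87 such genes 82 were tested. In 1 of them, 1.22%, the groups did not overlap, against 3.07% of all tested genes. This was B3gat3, which encodes the enzyme that completes the linker between proteoglycan proteins and their sugar chains. It had 2 events in each morphine library and 4 in each saline library (log2 ratio -0.85, exact permutation p = 0.1). The 2 further saline events are alternative ends of a single exon, from 8925538 to 8925898 and from 8925704 to 8925898 of chromosome 19. Limma gave it an adjusted p of 2.12e-07. The counts were identical within both groups, so that limma had no spread of this gene to work with. Of 640 events of these matrix genes, 6, or 0.938%, were listed in all libraries of a group and 0 of the other. Over the series the share was 0.665%. The 3 in morphine alone were the first and last exons of Dsel and a retained intron of Agrn. The 3 in saline alone were the 2 of B3gat3 and an alternative exon end of Lrp8.

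The genes closest to the nets overlapped. Hyaluronan synthase Has3 had 2, 3 and 3 events in morphine and 3, 2 and 2 in saline libraries, and Has2 was listed in 0 libraries. Ptprz1, of the proteoglycan list, had 10.3 ± 1.15 events in morphine and 9.33 ± 1.15 in saline libraries (SD, n = 3 each). Ptprs, of the net receptor list, had 4.33 ± 0.577 in morphine and 4.67 ± 2.08 in saline libraries (SD, n = 3 each). The transmembrane proteoglycan gene Cspg5 had 4 in each morphine library and 5, 4 and 5 in saline libraries. The chondroitin sulfate enzyme genes Chsy1 and Chst11, the lectican-cleaving protease genes Adamts4 and Adamts5 and the gelatinase gene Mmp9 had the same number in all 6 libraries. The protease inhibitor gene Timp2 had 2, 3 and 3 in morphine and 3, 3 and 2 in saline libraries.

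Of the reelin receptor genes, Vldlr had 6, 9 and 9 events in morphine and 9, 6 and 6 in saline libraries. Lrp8, the other receptor, had 31, 10 and 14 in morphine and 25, 32 and 18 in saline libraries (log2 ratio -0.56, exact permutation p = 0.3), a spread within each group wider than the difference. Dab1, the adaptor that carries the signal into the cell, had 7, 10 and 7 in morphine and 9, 13 and 8 in saline libraries. The 8 genes of the reelin list all overlapped, with a median log2 ratio of -0.12.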

How the data were processed

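RNA of the nucleus accumbens was extracted with Trizol from frozen tissue, per the labels' protocols. The deposited file of each library lists events under 20 type codes, with a gene ID, positions, a splice pattern and a strand. The sources used here name no assembler, event caller, genome build or depth. A column headed fpkm in the deposited files holds whole numbers between -24 and 0 and was not used. GENCODE M21 exons on GRCm38 hold the boundaries of 63.6% of distinct events, and positions were read on that build. The name table matched 15815 of 15939 gene IDs.

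Distinct events were counted per gene and library; codes ending in OFF, which repeat an event for its partner transcript, were left out. The 15040 genes averaging 0.5 or more events were tested with an exact two-sided permutation test on log2(events + 0.5), Benjamini-Hochberg adjusted, and called when the groups did not overlap. Fold changes are on that scale. The test was checked on simulated counts with larger changes than those reported here, so that check does not bear on them. Limma 3.58.1 (R 4.3.3, trend) was an alternative. Replicate numbers are not shared between groups. All 10 genes were named whatever their values. Partner genes were named when not overlapping, for an event listed in a single group alone, or from a fixed list. The genes and lists were chosen with earlier results of these data known.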

Additional observations from a re-analysis of the deposited data

How the results depend on the processing

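No paired analysis was possible because the groups share no replicate number. Hapln4 was below in morphine under every alternative tried. It lost its call only with limma, with and without the trend, which called 0 of the 10 genes at an adjusted p under 0.05. Another pseudocount, another filter on the mean or leaving out a library could not undo the call of groups that already lay apart. Those settings therefore add nothing to the Hapln4 result. The number of the 10 genes whose groups did not overlap was 1, and 2 with partner records counted, where Tnr joined. Leaving out each library gave 1 to 2 genes, with Reln added without morphine replicate 5 and Tnr without morphine replicate 6 or saline replicate 1, while 6.51% to 7.40% of all tested genes then did not overlap. The number of events listed in a single group was 2, and 1 with events counted by start and end, where the Acan exon splits by its start; leaving out each library gave 2 to 5, with 3, 4 and 5 without morphine replicates 4, 5 and 6. The log2 ratio of the summed events was -0.14 and stayed between -0.22 and -0.04 without each library. Matrix partner genes that did not overlap numbered 1, 5 with equal totals per library, 0 with first and last exons alone, 2 without intron retention and 2 with annotated events alone. They numbered 6, 4 and 3 without morphine replicates 4, 5 and 6, and 2, 4 and 3 without saline replicates 1, 2 and 3. An event or gene passes more easily with fewer libraries. Beside these counts of genes, a share of all tested genes is given only for the first setting and for leaving out a library. Beside the counts of events, a share of all events is given only for the first setting. The other counts are therefore not read as results about these genes. Among single genes that overlapped in the first place, Vcan turned to -0.12 with first and last exons alone, -0.01 without intron retention, -0.08 with annotated events alone, -0.21 without morphine replicate 4 and -0.13 without saline replicate 1, and lay at 0.25 at most, without morphine replicate 5. Hapln2 turned to 0.16 with first and last exons alone, 0.18 with exact-boundary types alone and 0.16 without saline replicate 1, and lay at -0.23 at least, without saline replicate 2. The cause was not tested. Unknown depth limits every statement about an event that is not listed.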
